A study of Rattus norvegicus with 3 samples.

Results

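Carbonic anhydrases and Slc4 bicarbonate transporters were described in the rat medullary thick ascending limb (mTAL), the outer medullary segment of the kidney tubule that reabsorbs salt without water. The members were 9 genes, the carbonic anhydrases Car2, Car3, Car4 and Car12 and the transporters Slc4a1, Slc4a2, Slc4a3, Slc4a4 and Slc4a7. They comprised every probe set whose only annotated symbol was one of these, which gave 15 of the 20826 probe sets with 1 symbol and 9 of 14217 genes. Car2, Car3, Car4, Slc4a1, Slc4a4 and Slc4a7 each had 2 probe sets, and Car12, Slc4a2 and Slc4a3 each had 1. All 3 arrays belong to 1 group of male Sprague-Dawley rats aged 7 to 8 weeks. Every rat had been injected intraperitoneally, 30 min before death, with furosemide, a loop diuretic, at 1 mg and with heparin at 250 u, and no untreated animals or other tissues were profiled. The tubules came from collagenase-digested outer medulla on a 33.3% Percoll gradient, so that other cells of the outer medulla could remain. No label says whether the preparations came from separate or pooled rats, and the p-values therefore measure only the spread between these preparations, which may be technical.

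Carbonic anhydrases speed the interconversion of carbon dioxide and water with bicarbonate and protons. In the thick ascending limb, protons leave the cell through the apical sodium-proton exchanger NHE3, encoded by Slc9a3, and the bicarbonate formed inside leaves across the basolateral membrane. The Slc4 members encode proteins that carry bicarbonate across plasma membranes, some in exchange for chloride and others together with sodium. The sodium-coupled carrier NBCn1, encoded by Slc4a7, is known from the basolateral membrane of the rat mTAL, where it brings bicarbonate into cells that take up ammonium.

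Each value is the linear signal of a probe set, and the arrays shared 1 overall level, with a trimmed mean of 1000 each. A probe set was called above background when its log2 signal exceeded a cutoff at an adjusted p under 0.05 (limma, one-sided). The cutoff was taken from 72 genes of other tissues, as their 95th percentile, and lay at a signal of 539, 524 and 511 on replicates 1, 2 and 3. Of 13 measured markers of the labelled segment 13 were called, with Umod and Egf, which encode uromodulin and epidermal growth factor, highest at 57036 ± 8031 and 45192 ± 905 (SD, n = 3). Pearson's r of log2 signals across probe sets, which are not independent, lay between 0.931 and 0.937 for the array pairs. The 3' to 5' log2 signal ratio of the beta-actin control, which is high in degraded RNA, was 1.48, 1.18 and 1.95 on replicates 1, 2 and 3. That of the GAPDH control was 0.51, 0.43 and 0.60, and both ratios were highest on replicate 3.

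Of the 9 member genes, Car2, Slc4a7, Car4 and Slc4a2 were called above background and the other 5 were not. At the gene level, with the brightest probe set standing for each, 4 of 9 were called, or 44.4%, beside 48.4% of all genes. At the probe set level 6 of 15 were called, or 40%, beside 39.4% of all probe sets. The share of members called was thus near that of all genes. The median log2 signal minus cutoff was -0.35 over the 9 genes and 0.34 over all genes. By the brightest probe set, the 4 called genes had mean signals of 4082 or more and the other 5 had 457 or less. The second probe sets of the called genes Slc4a7 and Car4 averaged 1210 and 135.

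**Figure D1:**
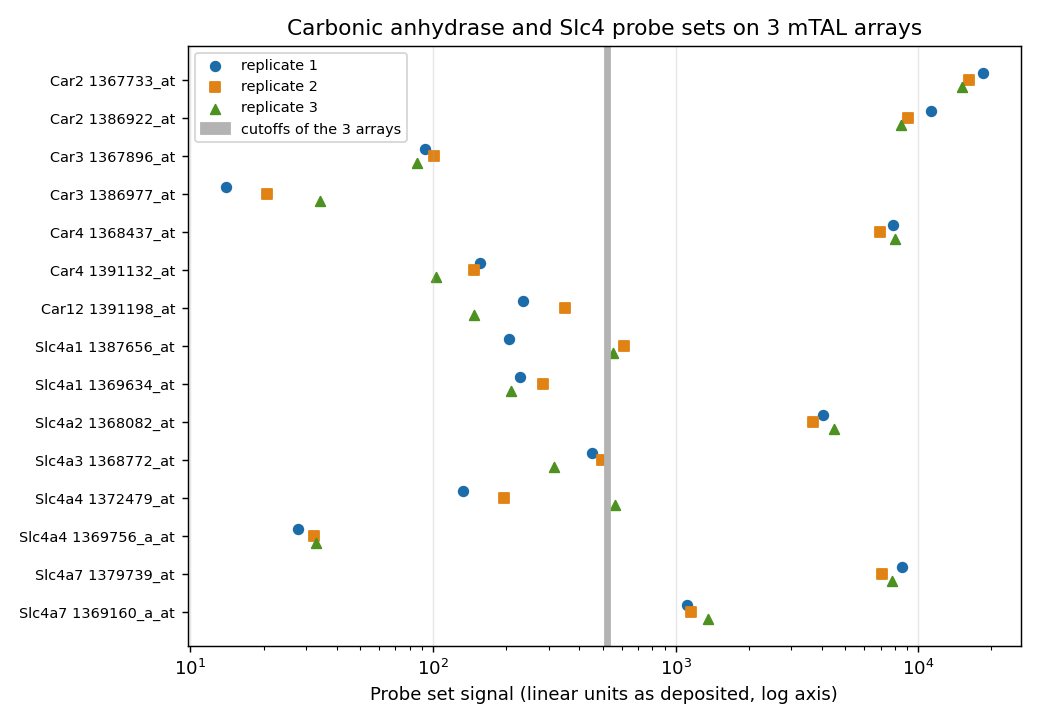
Signals of the 15 member probe sets (rows, gene and probe set name) on the 3 arrays, on a log axis; circles, squares and triangles are replicates 1, 2 and 3, and the grey band spans the array cutoffs of 511 to 539. Both Car2 and both Slc4a7 probe sets, 1 of the Car4 pair and Slc4a2 lie to the right of the band on every array.

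Car2, the cytosolic carbonic anhydrase II, had the highest signal of the members. Probe set 1367733_at read 18433, 16123 and 15130 on replicates 1, 2 and 3, 16562 ± 1695 on average. Its second probe set, 1386922_at, read 11277, 9056 and 8492. Both were highest on replicate 1 and lowest on replicate 3, and all 6 values lay far above the cutoffs. They stood 4.98 and 4.18 log2 units above the cutoff (limma adjusted p = 0.000232 and 0.000238), at percentiles 98.6 and 96.7 of all probe sets. In bulk preparations like these, fewer cells of a type and less RNA per cell cannot be told apart. The part of other cells of the outer medulla in the Car2 signal was not tested.

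Car4, the carbonic anhydrase IV anchored to the cell surface, was called by 1 of its 2 probe sets. Probe set 1368437_at, designed on a RefSeq mRNA, read 7865, 6985 and 8021 on replicates 1, 2 and 3. Its log2 signal stood 3.86 above the cutoff (limma adjusted p = 0.000235), with an SD of 0.11 log2 units. Probe set 1391132_at, designed on an expressed sequence tag, read 155, 148 and 102, below the cutoff on every array (log2 signal minus cutoff -1.98). The 2 probe sets therefore gave opposite calls on the same arrays. Car4 was the only one of the 6 genes with 2 probe sets for which the calls differed. Both values cannot be put on a common scale, because hybridisation strength is a property of each probe set.

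Car12 and Car3 were not called. Car12, a membrane-spanning carbonic anhydrase with its active site outside the cell, read 235, 348 and 148 on replicates 1, 2 and 3 (probe set 1391198_at). Its mean log2 signal minus cutoff was -1.19, and replicate 2 was 2.36-fold above replicate 3. Car3, the cytosolic enzyme of muscle and fat, read 92.8, 101 and 85.5 with probe set 1367896_at, and 13.9, 20.6 and 34.3 with 1386977_at. All of these lay below the cutoffs, with mean log2 signals minus cutoff of -2.50 and -4.61. By limma, 0 of 7 muscle markers were called (0 with an unadjusted p under 0.05), and the highest, Tnni2 and Ckm, averaged 337 and 107. All 7 also stand in the other-tissue list, most of which lies below the cutoff by its definition. The lack of calls is therefore no test for muscle RNA. Myh1, a skeletal muscle myosin gene, stands in the other-tissue list but not in that muscle list. It was called at 43678, 45438 and 39684 on replicates 1, 2 and 3. Myh2 and Myl1, muscle genes that likewise stand only in the other-tissue list, were not called and averaged 37.9 and 80.7. The source of the Myh1 signal was not tested. Of 5 adipocyte markers Fabp4 was called, at 1087 ± 390, and Adipoq was next at 127. The part of these cells in the Car3 signal was not tested. In the RefSeq assembly GRCr8, Car2 and Car3 both lie on chromosome 2, and they had the highest and the lowest signal of the members.

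Slc4a7, the sodium bicarbonate cotransporter NBCn1, had the highest signal of the 5 transporters. Probe set 1379739_at read 8554, 7063 and 7795 on replicates 1, 2 and 3, and 1369160_a_at read 1111, 1155 and 1363. Both were above the cutoff on all arrays, by 3.89 and 1.20 log2 units (limma adjusted p = 0.000235 and 0.00279). The SDs of 0.14 and 0.16 log2 units were small beside these distances. The order of the arrays was not shared, with replicate 1 highest by the first probe set and lowest by the second.

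Slc4a2, the chloride-bicarbonate exchanger AE2, known from the basolateral membrane of this segment, was called as well. It read 4069, 3679 and 4498 on replicates 1, 2 and 3 (probe set 1368082_at), 4082 ± 410 on average. Its log2 signal stood 2.96 above the cutoff (limma adjusted p = 0.000313), at percentile 90.3 of all probe sets. Its relative Slc4a3, the exchanger AE3 known from heart and brain, read 452, 496 and 314 (1368772_at). Slc4a3 was below the cutoff on all 3 arrays, with a mean log2 signal minus cutoff of -0.35, and was not called.

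Slc4a1, the anion exchanger AE1 of red blood cells and acid-secreting intercalated cells, was not called, and its probe sets varied differently. Probe set 1387656_at read 206, 610 and 554 on replicates 1, 2 and 3, so that replicates 2 and 3 were above their cutoffs and replicate 1 was below. Probe set 1369634_at read 228, 284 and 210, below the cutoff on each array. The mean log2 signals minus cutoff were -0.35 and -1.14. Without replicate 1, the first probe set stood 0.17 above the cutoff and was still not called (limma adjusted p = 0.443). Red blood cell markers summed to 1493, 1572 and 6240 on replicates 1, 2 and 3, with 1 of 5 called, and their highest genes Hbb and Alas2 averaged 2835 and 171. Hbb alone read 1196, 1427 and 5881, and the other 4 summed to 297, 145 and 358. Of the 5, 1 was higher on replicate 2 than on replicate 1 and 2 were higher on replicate 3 than on replicate 1. Intercalated cell markers summed to 10947, 12478 and 13287, with 6 of 7 higher on replicate 2 than on replicate 1 and 6 of 7 higher on replicate 3 than on replicate 1. The proton pump subunit Atp6v0a4, at 9768 ± 177, was the only one of the 7 called, and it made up most of each sum. The other 6 summed to 1353, 2714 and 3340, with replicate 3 at 2.47-fold of replicate 1, and Atp6v1g3 among them read 415, 1391 and 1473. The part of these cells in the Slc4a1 signal was not tested.

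Slc4a4, the sodium bicarbonate cotransporter NBCe1, which carries bicarbonate out of proximal tubule cells, had the largest spread among the members. Probe set 1372479_at read 133, 196 and 562 on replicates 1, 2 and 3, and only replicate 3 exceeded its cutoff. Replicate 3 was 4.24-fold above replicate 1, and the SD of 1.08 log2 units lay at percentile 85.7 of all probe sets. Probe set 1369756_a_at read 27.7, 32.3 and 32.9, low on every array and with an SD of 0.14. Neither was called, at mean log2 signals minus cutoff of -1.10 and -4.09.

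Proximal tubule markers except Slc7a7, which was highest on replicate 2, were highest on replicate 3. Their sum was too, as were the sums of principal cell, intercalated cell and red blood cell markers. The proximal tubule markers summed to 8500, 31254 and 97855 on replicates 1, 2 and 3, and 21 of 21 were higher on replicate 3 than on replicate 1. Above the cutoff were 3, 11 and 17 of the 21 on replicates 1, 2 and 3, 3 of 21 were called, none was at 0, and the highest were Kap (11142 ± 13412) and Hao2 (7724 ± 4140). The part of proximal tubule RNA in the Slc4a4 signal was not tested. For Car4, also known from the proximal tubule and from endothelium, the log2 signal on replicate 3 minus that on replicate 1 was 0.03 with the called probe set and -0.60 with the other, beside a median of 4.27 over the proximal tubule markers. The part of these cells in the Car4 signal was not tested. Endothelial markers, led by Esam (5938 ± 727) and Plvap (4582 ± 1135), summed to 16225, 27609 and 24859, with 10 of 10 higher on replicate 2 than on replicate 1 and 6 of 10 called.

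Other marker lists were read for differences between arrays. Their sums do not give shares of cells, because hybridisation strength is a property of each probe set. Thick ascending limb markers summed to 260611, 256373 and 238787 on replicates 1, 2 and 3. Principal cell markers summed to 12203, 17348 and 27200, with 10 of 11 higher on replicate 3 than on replicate 1, 4 of 11 called and Tfcp2l1 (7305 ± 1639) and Aqp2 (4310 ± 3229) highest. Thin limb markers, led by Cryab (19659 ± 6806) and Aqp1 (17342 ± 10681), summed to 26926, 71214 and 40728, with 4 of 4 called. Leukocyte markers summed to 2093, 4047 and 3341, with 2 of 6 called and Lyz2 (1661 ± 776) and Laptm5 (884 ± 266) highest. Muscle markers, without Myh1, summed to 671, 850 and 730. Adipocyte markers summed to 944, 1598 and 1532, of which Fabp4 gave 638, 1294 and 1330; 2 of 5 were higher on replicate 3 than on replicate 1, with a median difference of -0.58 log2 units. The lowest value of the thick ascending limb list was 1540. No marker of any list, the proximal tubule list included, was at 0. Neither was any other value on the arrays, so this does not show presence.

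**Figure D2:**
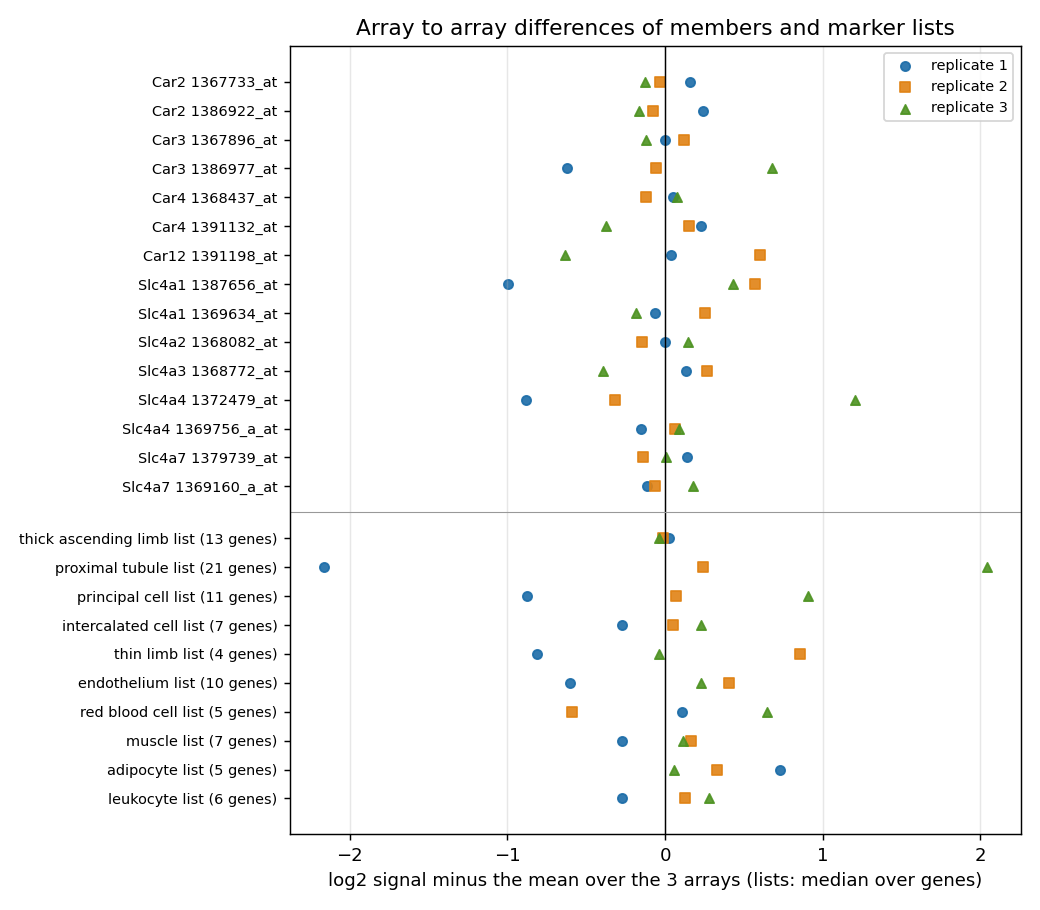
Log2 signal on each array minus the mean over the 3 arrays for the 15 member probe sets (upper rows) and, as the median over genes, for 10 marker lists (lower rows); circles, squares and triangles are replicates 1, 2 and 3. Slc4a4 1372479_at spans from -0.88 on replicate 1 to 1.20 on replicate 3, and the called Car4 probe set lies between -0.12 and 0.08.

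The called probe sets varied little between arrays. The 6 called probe sets had SDs between 0.11 and 0.21 log2 units. The other 9 overlapped this range at the low end and ran from 0.12 for Car3 1367896_at to 1.08 for Slc4a4 1372479_at. The median SD was 0.17 over the 9606 probe sets with a mean above the mean cutoff and 0.57 over the 11220 below it, so that low signals varied more across the whole array. Of the 15 member probe sets, 6 had an SD above the median of all probe sets, 0.30.

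By mean log2 signal of the brightest probe set, the order was Car2, Slc4a7, Car4, Slc4a2, Slc4a3, Slc4a1, Slc4a4, Car12 and Car3. It is an order of signals and does not give relative transcript abundance. The ranges over the arrays of Slc4a7 (7063 to 8554) and Car4 (6985 to 8021) overlapped. Those of Slc4a3 (314 to 496), Slc4a1 (206 to 610), Slc4a4 (133 to 562) and Car12 (148 to 348) overlapped each with the next. Car2 (15130 to 18433), Slc4a2 (3679 to 4498) and Car3 (85.5 to 101) overlapped with no neighbour.

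The calls depended on the cutoff for members near it. With the cutoff moved down to the 90th percentile, a signal of 146 to 251, 6 of the 9 genes were called, beside 60.4% of all genes; Slc4a3 and Slc4a1 joined, at 1.10 log2 units above that cutoff each. At the 99th percentile, a signal of 4026 to 4991, Car2, Slc4a7 and Car4 were called at the gene level, beside 5.64% of all genes, and the first Car2 probe set was the 1 of 15 called at the probe set level, beside 3.28% of all probe sets. The 99th percentile depends on Myh1, whose signal of 42933 ± 2949 was far above the other genes of the list. Without Myh1 the cutoff fell to between 343 and 408 and the same 4 genes were called, beside 53.5% of all genes. With the highest signal of TrpnX, a bacterial control sequence, as the cutoff, 9 of 9 genes and 13 of 15 probe sets were called, beside 78.3% of genes and 74.2% of probe sets. The exceptions were Car3 1386977_at and Slc4a4 1369756_a_at. A gene that was not called may still be expressed below what the cutoff can show.

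**Figure D3:**
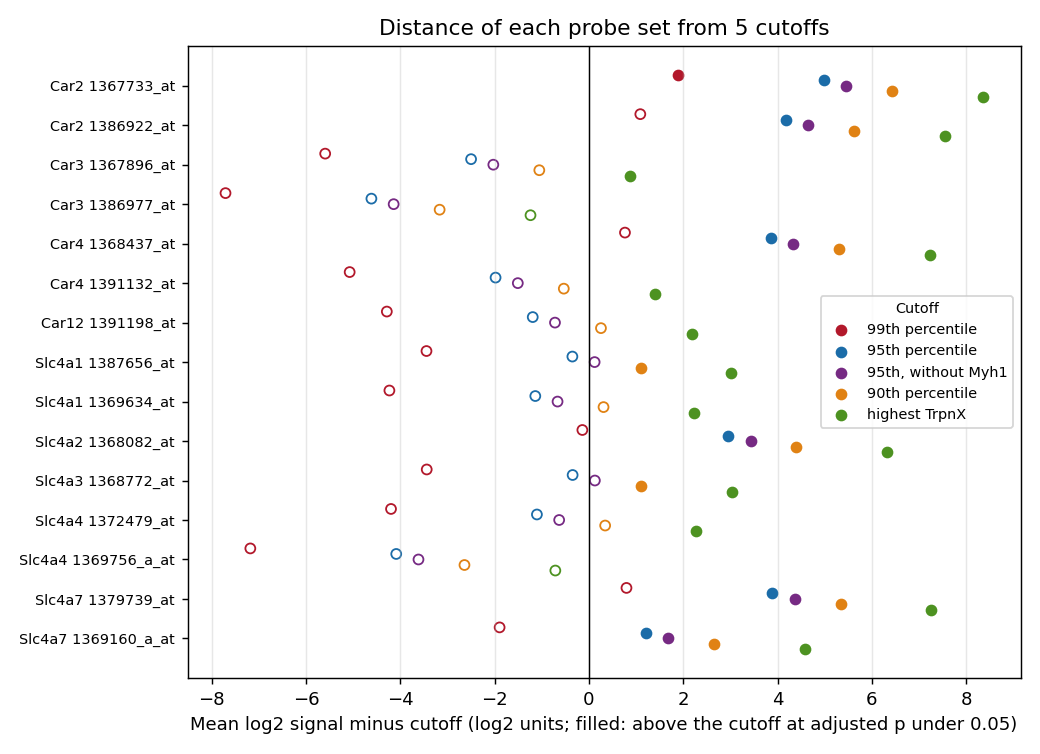
Mean log2 signal of each member probe set minus 5 cutoffs (colours); filled circles were called above that cutoff and open circles were not. Car2 1367733_at is filled at every cutoff, Slc4a3 and Slc4a1 1387656_at are open at the 95th percentile and filled at the 90th, and Car3 1386977_at and Slc4a4 1369756_a_at are open throughout.

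The probe sets differed in the sequences on which they were designed, per the platform annotation. Of 5 designed on RefSeq mRNAs 3 were called, beside 33.2% of all probe sets of that kind. Of 6 designed on expressed sequence tags 2 were called, beside 41.8%, and of 4 designed on other GenBank entries 1 was called, beside 24.2%. The kinds were read from accession prefixes, and so few members do not show a difference from these shares. Each kind thus occurred among called and uncalled probe sets. The pairs that gave like calls, Car2 and Slc4a7 above the cutoff and Car3, Slc4a1 and Slc4a4 below it, each combined different kinds.

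RefSeq promoter windows, from 250 bases before to 50 after the annotated start, were found for 5 of the 9 members in the GRCr8 table. The 2 windows of called genes are shown because they differ in base composition although both genes were called, with CG pairs in capitals. That of Car4 is chr10:70325108-70325407 on the + strand and that of Slc4a2 is chr4:11645353-11645652 on the - strand.
Car4: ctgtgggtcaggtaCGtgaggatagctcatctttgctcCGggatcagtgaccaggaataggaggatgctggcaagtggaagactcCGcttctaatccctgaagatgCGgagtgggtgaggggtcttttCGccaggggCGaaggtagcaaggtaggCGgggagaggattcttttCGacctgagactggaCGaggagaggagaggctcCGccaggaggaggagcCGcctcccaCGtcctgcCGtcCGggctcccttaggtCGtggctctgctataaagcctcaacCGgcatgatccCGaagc
Slc4a2: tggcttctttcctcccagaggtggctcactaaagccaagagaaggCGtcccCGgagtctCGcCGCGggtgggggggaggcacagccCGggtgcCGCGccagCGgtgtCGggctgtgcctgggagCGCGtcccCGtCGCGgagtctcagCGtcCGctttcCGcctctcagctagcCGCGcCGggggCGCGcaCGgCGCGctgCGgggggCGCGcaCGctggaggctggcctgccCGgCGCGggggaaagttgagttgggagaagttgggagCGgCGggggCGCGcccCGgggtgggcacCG
The Car4 window held 17 CG pairs at 59.7% G and C, and the Slc4a2 window held 39 at 75%. The uncalled genes had 13 (Car12), 18 (Slc4a3) and 47 (Slc4a4), so that the counts of called and uncalled members overlapped. All 5 were above the median of 7 CG pairs over the 33469 windows of the table. The letters TATAAA, read on both strands, occurred in the Car4 window and in 14.2% of all windows, and not in the other 4. In the Car4 window they lay within the 50 bases after the annotated start. A gene can have further start sites outside its window.

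Other genes of acid-base transport were taken from 6 lists. Of 36 measured, 8 were called, or 22.2%, beside 48.4% of all genes, and their median log2 signal minus cutoff was -1.46, beside 0.34 for all genes. Among other carbonic anhydrases 2 of 10 were called. These were Car5b, a mitochondrial enzyme (2494 ± 144, limma adjusted p = 0.000241), and Car11, a related protein without catalytic activity (1340 ± 233). Car1, the carbonic anhydrase of red blood cells, was lowest at 7.22 ± 6.28.

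Both other measured Slc4 genes were called. Slc4a11 read 1932, 3479 and 1924 on replicates 1, 2 and 3, highest on replicate 2. Slc4a10, a sodium-coupled bicarbonate transporter known from brain, read 2815, 1946 and 2471. They stood 2.16 and 2.18 log2 units above the cutoff (limma adjusted p = 0.00224 and 0.000565). Among the Slc26 anion exchangers limma called 0 of 8, with 0 at an unadjusted p under 0.05, and Slc26a2 was lowest at 19.6 ± 19.8.

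Of 7 genes of proton export, 2 were called. They were Slc9a3, the apical sodium-proton exchanger (15548 ± 556), and Atp6v0a4, a subunit of the proton pump, which is also an intercalated cell marker. Slc9a4, another sodium-proton exchanger, was lowest at 76.4 ± 7.17. Of 4 ammonium genes Glud1, the glutamate dehydrogenase of mitochondria, was called (9716 ± 686), and Rhag, the ammonia channel of red blood cells, was lowest at 10.9 ± 0.785. Of 5 genes of pH sensing and regulation Ahcyl1, whose protein binds and activates NBCe1, was called (10920 ± 516), and the receptor gene Insrr was lowest at 64.2 ± 22.5. Car2 and Slc9a3 thus had the highest signals of the members and of the other acid-base genes, at 16562 and 15548.

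**Figure D4:**
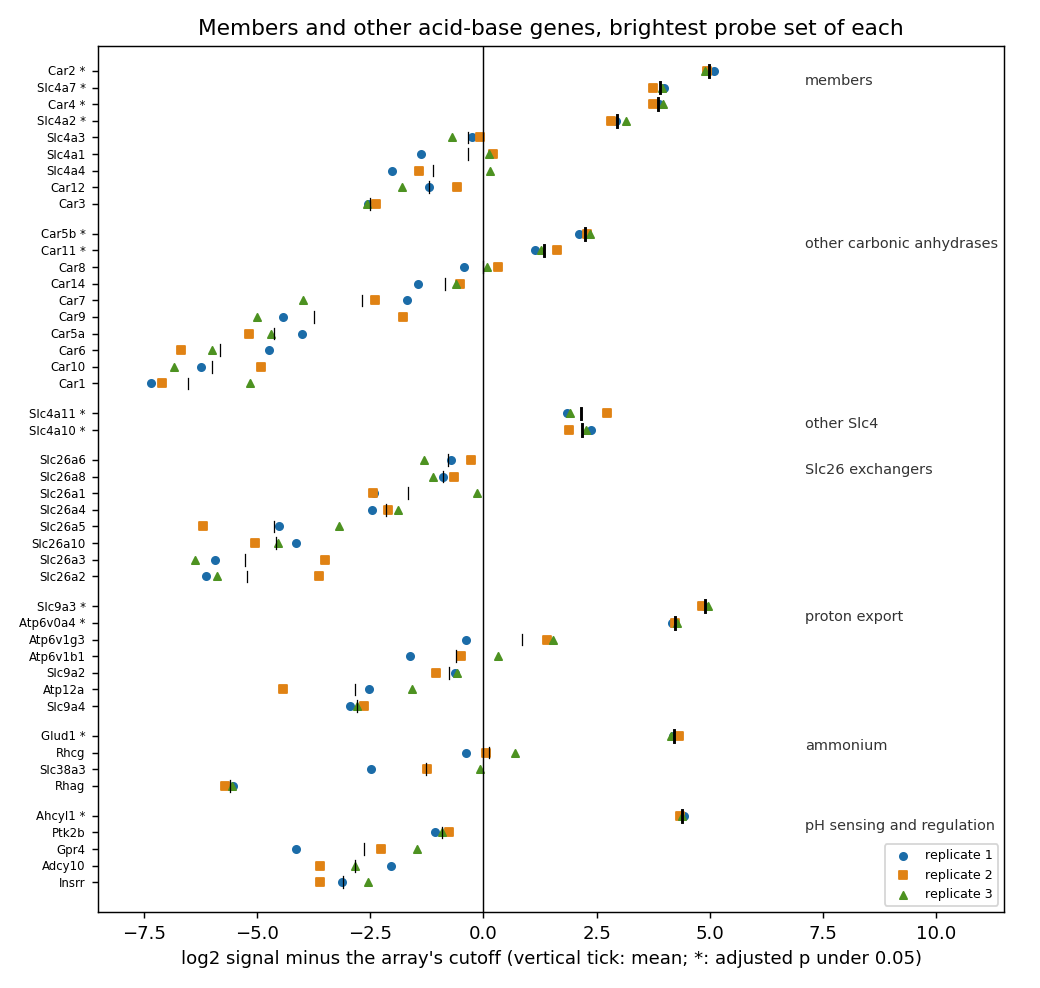
Log2 signal minus the array's cutoff for the 9 members (top block) and the 36 other measured acid-base genes in 6 blocks, 1 row per gene; circles, squares and triangles are replicates 1, 2 and 3, vertical ticks are means, and asterisks mark called genes. The 4 called members lie between 2.96 and 4.98 on average, and no Slc26 gene lies right of 0 on any array.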

How the data were processed

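Total RNA of 3 medullary thick ascending limb preparations was labelled with biotin as cRNA and measured on Affymetrix arrays (source: the labels' protocols). The authors deposited 1 linear intensity per probe set and array, and how it was summarised, background-corrected and scaled is not given in the sources used here. No value of the table was 0 or negative, so log2 was taken with no pseudocount and no further scaling.

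Of 31099 probe sets, 57 were controls, and the platform annotation gave 1 symbol to 20826, several to 436 and none to 9780. Only those with 1 symbol were tested. The identifiers of all 9 members were found in the RefSeq table of assembly GRCr8, which held the same symbols.

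Each array had its own cutoff, the 95th percentile of its signals for 72 genes of other tissues. The log2 intensity minus the cutoff was tested one-sided above 0 with limma 3.58.1 in R 4.3.3 (lmFit, eBayes), and p-values were adjusted by Benjamini and Hochberg over all 20826 probe sets, or over 14217 genes with the brightest probe set standing for each, at a threshold of 0.05. The test was checked on simulated data. It takes the cutoff as known and covers the spread between arrays only, and the number of arrays limits the precision.

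The members, the gene lists and the tests were chosen with earlier results of these data known. Of 229 list entries, 197 matched a measured gene, 2 of them through a synonym. Every member and each of its probe sets is named. Of each other acid-base list, up to 3 called genes of highest mean signal and the gene of lowest mean signal are named. Of each marker list, the 2 genes of highest mean signal are named. These are means of linear signals, and by mean log2 signal the lowest gene of the proton export and Slc26 lists was another. Further genes of the lists, such as Slc7a7, Myh1, Myh2 and Myl1, were named after their values were seen. Genes of like pattern were not sought, since 3 arrays of 1 group give no pattern to match. The alternatives were 4 other cutoffs, quantile normalization, a common 75th percentile, a pseudocount of 16, a filter on mean signals under 100, eBayes with trend and robust, the mean over a gene's probe sets, and leaving out each array.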

Additional observations from a re-analysis of the deposited data

How the results depend on the processing

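Among the choices that were run, the counts of called members changed only with the cutoff. The count of 4 of 9 genes and of 6 of 15 probe sets stayed the same under quantile normalization, a common 75th percentile, a pseudocount of 16, the filter on mean signals, eBayes with trend and robust, the cutoff without Myh1 and without any 1 array, and the gene count also with the mean over probe sets. That mean moved the log2 signal minus cutoff of Car4 to 0.94, against 3.86 with the brightest probe set, and that of Slc4a7 to 2.55, against 3.89. At the 99th percentile 1 member probe set, 684 of all probe sets and 4 other acid-base genes were called. At the highest TrpnX signal 13 member probe sets, 9 member genes, 15448 of all probe sets and 20 other acid-base genes were called. The number of genes whose 2 probe sets gave different calls, an alternative added after seeing the data, was 2 in place of 1 at the 90th percentile and at TrpnX. These alternatives differ from the values reported only in the place of the cutoff. Of the 8 neighbouring pairs in the order of signals, 6 to 8 kept their order under the normalizations, the pseudocount and with each array left out, and 6 member probe sets had an SD above the median of all under the normalizations and the pseudocount. With 3 arrays, signals near or below the cutoff have the least certain level.

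The mean log2 signal minus cutoff changed sign as follows. At the 90th percentile it was 0.26 for Car12, 1.10 for Slc4a1 1387656_at, 0.31 for Slc4a1 1369634_at, 1.10 for Slc4a3 and 0.34 for Slc4a4 1372479_at. Without Myh1 it was 0.12 for Slc4a1 1387656_at and 0.13 for Slc4a3, and with each array left out in turn it ran from -0.64 to 0.17 for Slc4a1 1387656_at, the highest without replicate 1. At TrpnX it was 0.88 for Car3 1367896_at, 1.39 for Car4 1391132_at, 2.18 for Car12, 3.02 and 2.24 for Slc4a1, 3.03 for Slc4a3 and 2.27 for Slc4a4 1372479_at. At the 99th percentile it was -0.14 for Slc4a2 and -1.89 for Slc4a7 1369160_a_at. No paired analysis was possible because the arrays form 1 group.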
